A study of Mus musculus with 18 samples.

Results

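Granins are acidic proteins that are packed with peptide hormones into the dense-core granules of endocrine cells and neurons, where they condense the cargo and are themselves cut into peptides. In the gut they mark enteroendocrine cells, the hormone-secreting cells that arise from crypt stem cells, and Chga is the usual marker of the lineage. The 6 granin genes Chga, Chgb, Scg2, Scg3, Scg5 and Vgf were described here out of 19938 genes measured. They were taken by exact gene symbol in the annotation of the array, and each had a single probe set, so no choice between probe sets was needed.

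The study isolated small intestinal crypts of mice and sorted their single cells on green fluorescence of a Flattop (Fltp) reporter, called FVR in the labels. Flattop is a gene of the planar cell polarity branch of Wnt signalling. All mice were C57Bl6/J, 4 months old and of genotype FltpZV/+, so every gate carried the reporter allele, and the gates were set by its fluorescence. The reporter-high, reporter-low and reporter-negative gates had 2 arrays each, and 2 animals were pooled for each array. A gate on a reporter is not a pure cell type, and the labels do not say whether gates with the same replicate number came from the same animals. Of 18 samples in the series, the 12 from a lineage-tracing line had no values in the table used and are not analysed here.

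Values are log2 intensities after RMA, a standard summary of short-oligonucleotide arrays, and a difference of 1 is a doubling. Array medians lay between 4.54 and 4.74. A background level of 4.23 was set from 1207 olfactory, vomeronasal and trace amine receptor genes, taken as a set that is mostly silent outside the sense organs. Replicate arrays had a Pearson r over all genes of 0.946 for high, 0.975 for low and 0.981 for negative cells. All 10 stem cell markers were above background on both arrays of every gate, as were all 12 enterocyte and all 9 goblet cell markers. On average over the arrays 12891 genes exceeded that level, so these counts describe the gates without identifying them. Values of different genes come from different probes, so levels were compared between gates and, apart from the background level, not between genes. In sorted pools, a larger share of endocrine cells and more granin RNA per cell cannot be told apart.

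The promoters of granin genes are shown first because the cAMP response element (CRE), the DNA site bound by CREB family factors, is known from several of them. RefSeq promoter windows of the GRCm38.p6 build, 250 bases before and 50 after the annotated start, were given for 5 of the 6 genes, all but Vgf. Below are the 200 bases before each start, 5′ to 3′ on the gene's own strand, with the CRE core TGACG in capitals wherever it occurs on either strand. The stretches are chr12:102554741-102554940 (+) for Chga, chr2:132781442-132781641 (+) for Chgb, chr1:79440027-79440226 (-) for Scg2, chr9:75684057-75684256 (-) for Scg3 and chr2:113829092-113829291 (-) for Scg5.
Chga: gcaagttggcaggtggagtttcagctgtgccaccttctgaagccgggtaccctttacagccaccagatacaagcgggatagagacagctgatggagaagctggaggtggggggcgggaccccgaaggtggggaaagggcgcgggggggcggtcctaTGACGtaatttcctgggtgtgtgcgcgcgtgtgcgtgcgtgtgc
Chgb: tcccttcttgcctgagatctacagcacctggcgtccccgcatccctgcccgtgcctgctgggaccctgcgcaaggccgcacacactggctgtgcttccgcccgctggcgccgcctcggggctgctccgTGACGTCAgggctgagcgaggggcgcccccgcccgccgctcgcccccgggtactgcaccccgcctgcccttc
Scg2: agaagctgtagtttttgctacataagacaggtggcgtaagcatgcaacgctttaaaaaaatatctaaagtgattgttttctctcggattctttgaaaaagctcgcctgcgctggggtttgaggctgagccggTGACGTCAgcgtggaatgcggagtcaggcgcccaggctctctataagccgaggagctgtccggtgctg
Scg3: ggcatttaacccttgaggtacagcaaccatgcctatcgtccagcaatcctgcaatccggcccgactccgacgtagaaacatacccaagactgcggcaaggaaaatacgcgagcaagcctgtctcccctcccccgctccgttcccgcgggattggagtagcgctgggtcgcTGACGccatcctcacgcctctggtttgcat
Scg5: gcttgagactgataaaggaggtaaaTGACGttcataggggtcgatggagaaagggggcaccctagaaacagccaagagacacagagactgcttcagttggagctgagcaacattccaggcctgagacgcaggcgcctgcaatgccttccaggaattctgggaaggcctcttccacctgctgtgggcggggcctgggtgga

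All 5 granin windows held the core TGACG on either strand, as did 20.8% of 32851 windows of the same length. The palindromic site TGACGTCA, which contains the core on each strand, was in the windows of Chgb and Scg2, and in 1.8% of all windows. It began 72 bases before the start of Chgb and 68 bases before that of Scg2. The core began 44 bases before the start in Chga, 30 in Scg3 and 175 in Scg5, and Scg5 held it again after its start. The granin windows had a GC content of 50.7% to 72.7%, against a median of 52.7% over all windows, and the core contains a CG pair, of which the granin windows held 9 to 31 and all windows a median of 7. The motif TATAAA lay in the Chga window alone, shortly after the annotated start, and in 13.6% of all windows. The motifs TCAGCACC and GGACAG, parts of the element bound by the repressor REST, were found in Scg2 alone, side by side on the opposite strand at the start. They were in 1.6% and 22.2% of all windows. These matches describe letters in the windows, and binding was not measured.

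Every granin gene was highest in the reporter-low gate. Chga, Chgb, Scg2, Scg3, Scg5 and Vgf all rose in low over negative cells, by a median of 5.46 on the log2 scale where the median gene changed by -0.03. With genes below background in negative cells held at the background level, that median was 5.06. All 6 granin genes were called higher (limma, adjusted p under 0.05 over all genes), beside 3.42% of all genes. Both low arrays exceeded both negative arrays for all 6, which was so for 23% of all genes.

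**Figure D1:**
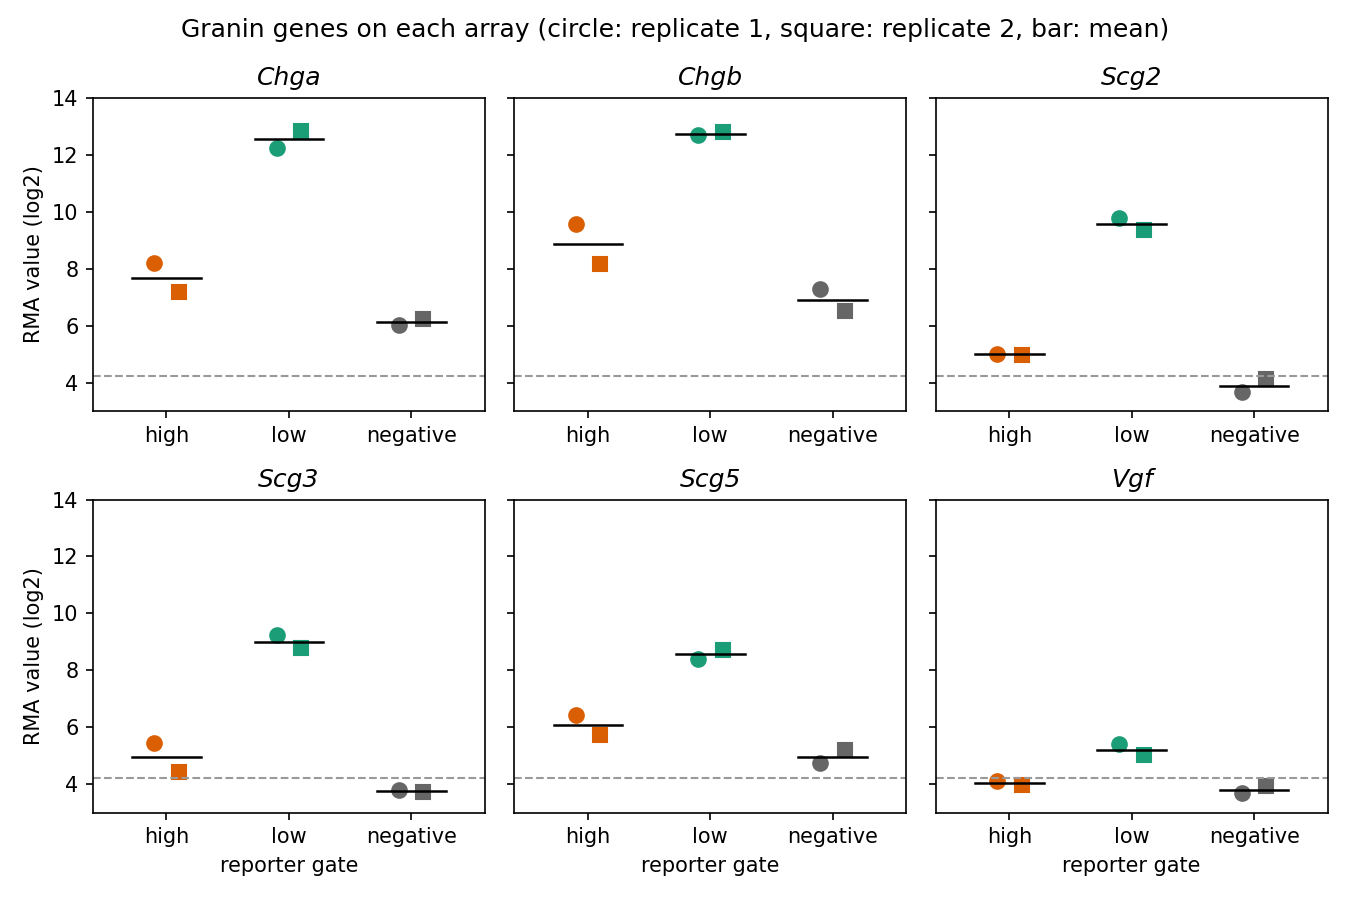
RMA log2 value (y axis) of each granin gene on every array, by reporter gate (x axis). Circles are replicate 1, squares replicate 2, black bars the mean of 2 arrays and the dashed line the background level of 4.23. The low gate is above the others in all 6 panels, and Scg2, Scg3 and Vgf lie under the dashed line in the negative gate.

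The chromogranins are the most abundant granins of many endocrine granules, where they aggregate at low pH and high calcium. Chga read 8.20 and 7.17 on the high arrays, 12.26 and 12.85 on the low arrays, and 6.03 and 6.25 on the negative arrays. The gates did not overlap, and the low arrays stood at least 4.05 above any other array. Averages were 7.69 ± 0.73 in high, 12.55 ± 0.42 in low and 6.14 ± 0.16 in negative cells (SD, n = 2 each). The low gate exceeded the negative gate by 6.41 ± 0.37 (SE, 95% interval 5.53 to 7.28, limma adjusted p = 0.000455), which ranked 7 among all fitted increases.

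Chgb, the second chromogranin, read 9.57 and 8.15 on the high arrays, 12.69 and 12.82 on the low arrays, and 7.28 and 6.52 on the negative arrays. The low pair was the tightest and the high pair the widest, with 1.42 between its arrays. The low gate exceeded the negative gate by 5.85 ± 0.47 (95% interval 4.73 to 6.97, limma adjusted p = 0.00182). The change of Chgb was no smaller than that of Chga beyond their intervals, which overlap.

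Scg2 and Scg3 were below background in negative cells and far above it in low cells. Scg2, the precursor of the neuropeptide secretoneurin, read 5.02 and 4.97 on the high arrays, 9.77 and 9.35 on the low arrays, and 3.67 and 4.11 on the negative arrays. The negative arrays lay below the background level, so the rise in low cells is at least 40.3-fold (limma adjusted p = 0.000208). Scg3, which binds chromogranin A and carboxypeptidase E at the granule membrane, read 5.45 and 4.44 on the high arrays, 9.23 and 8.78 on the low arrays, and 3.79 and 3.72 on the negative arrays. Its rise in low cells is at least 27.5-fold by the same rule (limma adjusted p = 0.000739). With background set at 4.98, the 99th percentile of the receptor genes, these bounds are 23.9-fold for Scg2 and 16.3-fold for Scg3. On the high arrays both genes were above background, replicate 2 of Scg3 by little.

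Scg5 encodes 7B2, a chaperone and inhibitor of the prohormone convertase PC2. It read 6.44 and 5.73 on the high arrays, 8.41 and 8.71 on the low arrays, and 4.75 and 5.20 on the negative arrays. All of its arrays were above background, and the gates did not overlap. The rise in low over negative cells was 12.0-fold, or 3.59 ± 0.30 on the log2 scale (95% interval 2.88 to 4.29, limma adjusted p = 0.00195).

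Vgf, a granin first known as a gene induced by nerve growth factor, had the smallest change of the 6. It read 4.10 and 3.96 on the high arrays, 5.40 and 5.01 on the low arrays, and 3.70 and 3.92 on the negative arrays. It was above background on the low arrays only, by 0.98 on average, so the rise in low over negative cells is at least 1.97-fold (limma adjusted p = 0.0152), or at least 1.17-fold with background at 4.98. This call was lost without negative replicate 1 (adjusted p = 0.130), negative replicate 2 (adjusted p = 0.0898) or low replicate 1 (adjusted p = 0.0819). The calls of Chga, Chgb, Scg2, Scg3 and Scg5 were kept without any array, with limma adjusted p up to 0.0295.

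**Figure D2:**
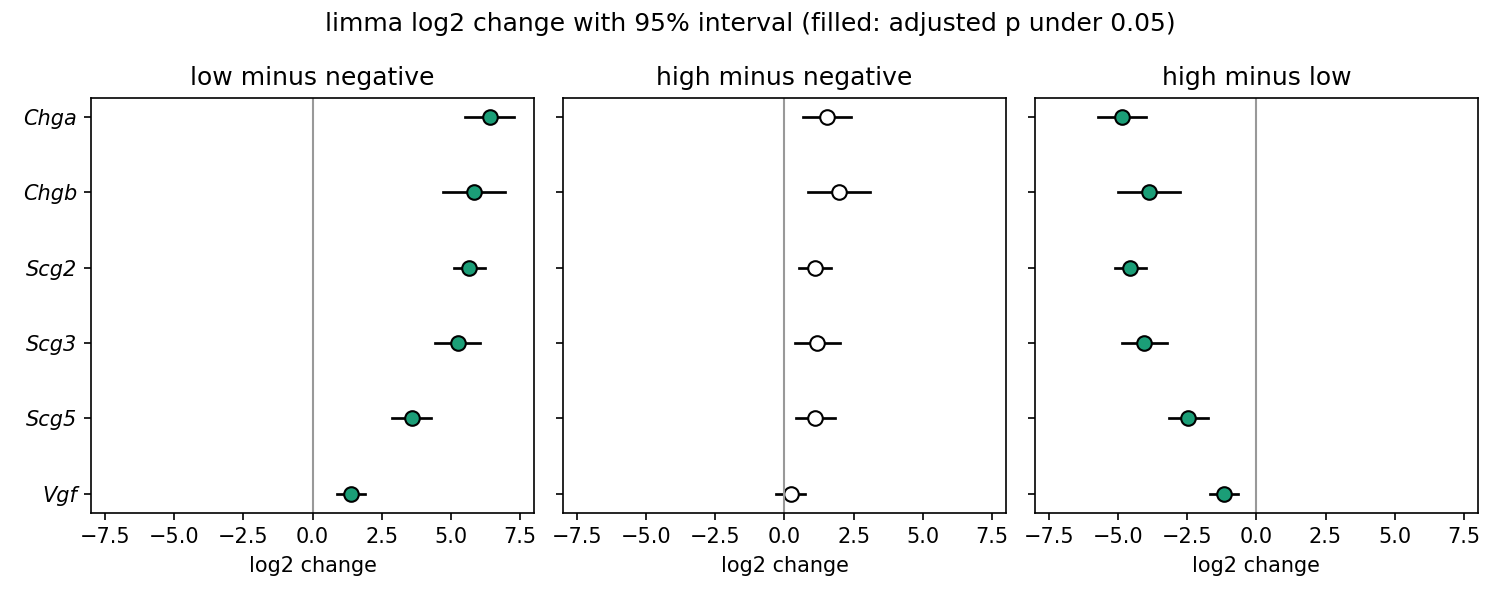
log2 change of each granin gene (x axis) with its 95% interval from limma in low minus negative, high minus negative and high minus low cells. Filled points have an adjusted p under 0.05. All 6 are filled for low minus negative and for high minus low, and 0 for high minus negative, where the interval of Vgf includes 0. Fitted values are plotted, also where a gate lay below background and the text gives a lower bound.

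High cells held less granin RNA than low cells for all 6 genes. All 6 were called lower in high than in low cells, beside 3.89% of all genes, and both high arrays lay below both low arrays for all 6 and for 20.4% of all genes. The median change was -3.98, where the median gene changed by 0.13. Over all genes 202 were called higher and 776 lower in high cells, or 326 and 616 after quantile normalization. Chga was lower by 29.1-fold (-4.86 ± 0.37, limma adjusted p = 0.00126) and Scg2 by 23.7-fold (-4.57 ± 0.24, adjusted p = 0.000517). Scg3 changed by -4.06 ± 0.35 (adjusted p = 0.00182), Chgb by -3.89 ± 0.47 (adjusted p = 0.00697) and Scg5 by -2.47 ± 0.30 (adjusted p = 0.00668). Vgf, not above background in high cells, was lower by at least 1.97-fold (adjusted p = 0.0308), or by at least 1.17-fold with background at 4.98. The Vgf call was lost with only the 2 gates compared in the fit, which leaving out either negative array also amounts to. It was lost too without either low array or high replicate 2. Its change ran from -1.37 to -0.97 when an array was left out. In all, 428 genes (2.15%) were called higher in low cells than in both other gates, and all 6 granin genes were among them.

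High cells showed no called granin difference from negative cells in the main fit to all 6 arrays. The test called 0 of 6 (limma), beside 1.36% of all genes called higher, while 5 of 6 had an unadjusted p under 0.05, as did 22.2% of all genes. Both high arrays exceeded both negative arrays for all 6, which was so for 32.9% of all genes. Over all genes 272 were called higher and 667 lower in high cells, or 324 and 297 after quantile normalization. The differences were 1.96 ± 0.47 for Chgb (limma adjusted p = 0.0689), 1.55 ± 0.37 for Chga (adjusted p = 0.0678) and 1.11 ± 0.30 for Scg5 (adjusted p = 0.0894). Their 95% intervals ran from 0.84 to 3.08, 0.67 to 2.42 and 0.41 to 1.82 in that order. For Scg2 and Scg3, below background on both negative arrays, the differences have only lower bounds. These are 0.77 for Scg2 (adjusted p = 0.0508, fitted 95% interval 0.54 to 1.67) and 0.72 for Scg3 (adjusted p = 0.110, fitted 95% interval 0.37 to 2.01). With background at 4.98 the bound of Scg2 is 0.01, and Scg3 has none. Vgf, below background on all 4 arrays, differed by 0.22 (95% interval -0.29 to 0.73, adjusted p = 0.558), and by -0.01 after quantile normalization. The order of the gates was therefore low, high, negative in the means of all 6 genes. The step between high and negative did not pass the test for any of them in that fit. Some alternative fits to all 6 arrays, given below, called Chga, Chgb or Scg2.

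The differences between high and negative cells varied with the high array left out. Without high replicate 2 they were 2.67 for Chgb, 2.06 for Chga and 1.69 for Scg3. Without high replicate 1 they were 1.25, 1.03 and 0.69 in that order. All 6 granin genes read higher on high replicate 1 than on replicate 2, by 0.05 to 1.42, while 43.6% of all genes did. For Chga, Chgb and Scg3 the gap was over 1, as it was for 4.6% of all genes. High replicate 2 also had the narrowest spread of values, with an interquartile range of 2.14, against 2.45 on replicate 1 and 2.73 to 2.80 on the low and negative arrays. The part of this narrower spread in the result was not tested.

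Across the 6 arrays the granin genes followed a common profile. The 15 pairwise Pearson correlations lay between 0.941 and 0.995, over arrays that share the same 3 gates, and are given as a description. Each gene was centred on its mean, and likeness was the root mean square distance of the 6 centred log2 values, among 12335 other named genes above background on average. The gene nearest to the granin mean was Disp2, a member of the Dispatched family of membrane proteins, at a distance of 0.17, nearer than any granin gene itself. Disp2 read 5.20 and 4.95 on the high arrays, 8.82 and 8.75 on the low arrays, and 4.09 and 4.01 on the negative arrays. Among the granins Scg3 was nearest to their own mean at 0.30 and Vgf farthest at 1.40.

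The other near genes were Rbp4, Pam, Etv1, Pcsk1, Sct, Fabp5 and Pax6, at distances of 0.24 to 0.42. Rbp4 encodes the plasma carrier of retinol. Pam and Pcsk1 encode enzymes that amidate and cleave prohormones. Sct is the hormone secretin, and Etv1 and Pax6 are transcription factors. Fabp5 is a fatty acid binding protein.

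The nearest gene differed from granin to granin. Chga was nearest to Tph1, the rate-limiting enzyme of serotonin synthesis in enterochromaffin cells, at 0.26, with 5.73 and 4.23 on the high arrays, 10.09 and 10.31 on the low arrays, and 3.81 and 3.94 on the negative arrays. Chgb was nearest to Gpx3, a secreted glutathione peroxidase, at 0.35. Scg2 was nearest to the imprinted zinc finger gene Peg3 at 0.21, Scg3 to Rbp4 at 0.20 and Scg5 to Nkx2-2, a homeodomain factor of endocrine cells, at 0.25. Vgf was nearest to C1qa, a complement subunit gene of macrophages, at 0.11, with 4.93 and 4.76 on the high arrays, 5.96 and 5.91 on the low arrays, and 4.47 and 4.75 on the negative arrays. The distance is not scaled to the size of change. Vgf was above background on the low arrays only and changed little, so its small distance does not mean a closer likeness.

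**Figure D3:**
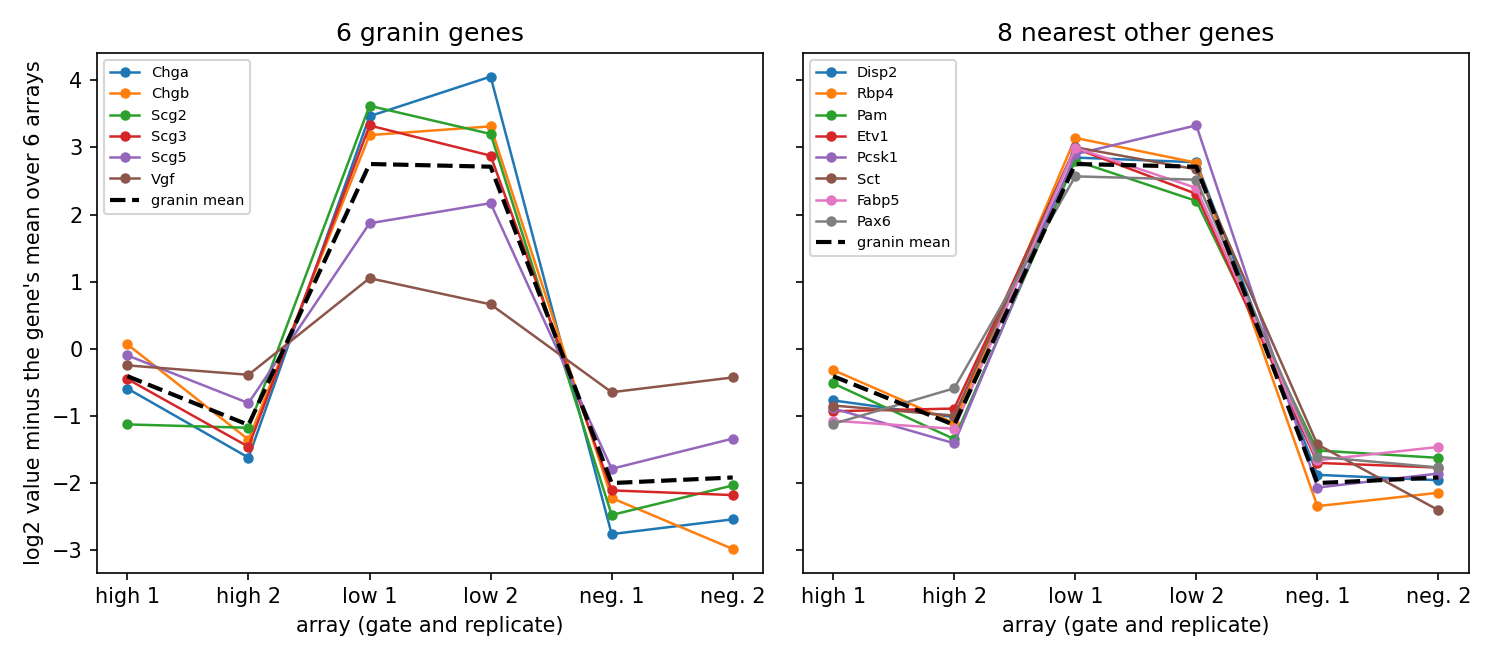
log2 value minus the gene's own mean (y axis) on each of the 6 arrays (x axis), for the granin genes on the left and the 8 nearest other genes on the right. Lines join the points of a gene for the eye only, and the dashed line is the granin mean. Both panels peak on the low arrays, and Vgf has the flattest line on the left.

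Genes related to granins by name or function did not all share this profile. Of 3 measured relatives, Pcsk1n (proSAAS, an inhibitor of the convertase encoded by Pcsk1) and Nucb2, the precursor of nesfatin, were called higher in low than in negative cells. Pcsk1n averaged 7.02 in low and 5.21 in negative cells (limma adjusted p = 0.045), a call lost without negative replicate 1 (adjusted p = 0.248), negative replicate 2 (adjusted p = 0.175) or low replicate 1 (adjusted p = 0.0901), and in several other fits. Without either negative array or low replicate 1 the count was 1. Nucb2 averaged 10.05 in high, 8.39 in low and 6.02 in negative cells, so its highest gate was the high gate. It was called higher in high than in low cells (1.66 ± 0.22, limma adjusted p = 0.00941), a call lost without low replicate 1 (adjusted p = 0.0622). Nucb1 differed by -0.19 in low against negative cells (adjusted p = 0.807).

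Genes that cut and modify prohormones changed in part with the granins. Of 11 measured processing enzymes, 4 were higher and 1 lower in low than in negative cells (median change 0.77), led by Cpe, Pcsk1 and Pam. Cpe, the carboxypeptidase that trims cleaved prohormones, lay below background on both negative arrays, and its rise was at least 6.97 (fitted change 7.13 ± 0.72). Without either negative array 3 were called higher and 0 lower. Against low cells, 3 were lower and 1 higher in high cells, and Cpe changed by -5.05 ± 0.72 (limma adjusted p = 0.0122), a call lost without low replicate 1 (adjusted p = 0.0724) or replicate 2 (adjusted p = 0.0616). The 1 higher call, Pcsk6 (adjusted p = 0.0455), was lost when any array was left out. The lower count was 2 without low replicate 1 and 4 without high replicate 1. Against negative cells Cpd, a carboxypeptidase of the trans-Golgi, was the 1 enzyme called higher in high cells (limma adjusted p = 0.028), a call lost when any array was left out (adjusted p from 0.05 to 0.167).

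Genes of the granule membrane and of granule maturation rose in part. Of 33 measured, 15 were higher and 0 lower in low than in negative cells (median change 1.19), with Resp18 at least 3.64, Slc18a1 4.05 ± 0.44 and Rab3c at least 3.09 higher. Slc18a1 loads monoamines into granules, and Rab3c is a small GTPase of regulated secretion. Without negative replicate 1, 5 were called, and 7 without replicate 2, and the call of Slc18a1 was lost in both (adjusted p = 0.056 and 0.0534). In high against low cells 13 were lower and 1 higher, with 7 lower and 0 higher without low replicate 2, and 8 lower and 2 higher without high replicate 2. Cadps, which primes granules for release, was not above background in high cells and was lower there by at least 3.34 (limma adjusted p = 0.000442). In high against negative cells Ica1, Hid1 and Ptprn2 were called higher, by 2.20 ± 0.27, 2.12 ± 0.28 and 2.01 ± 0.21 (adjusted p from 0.00976 to 0.0167). Those 3 calls were lost without either negative array. Without high replicate 2, 5 genes were called higher, and without high replicate 1, 4 higher and 1 lower.

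Granins are stored with hormones, and most of the hormone genes tested rose in low cells. Of 19 gut hormone genes, counting Tph1 for serotonin, 13 were higher, 0 lower and 6 not called in low against negative cells (median change 5.37), led by Nts (neurotensin), Pyy and Cck. In high against low cells 11 were lower and 0 higher, led by Nts, Tac1 and Gcg. In high against negative cells 4 were called higher, where 0 of 6 granin genes were, and that difference between the lists was not tested. These were Gast (gastrin, 6.95 ± 0.91, limma adjusted p = 0.0167), Ghrl (ghrelin, 4.08 ± 0.63, adjusted p = 0.0223), Sst (2.11 ± 0.34, adjusted p = 0.0241) and Gip (1.75 ± 0.28, adjusted p = 0.0237). Without either negative array 0 hormone genes were called in high against negative cells.

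Of 21 measured regulators of granin and endocrine genes, 11 were higher and 0 lower in low than in negative cells (median change 0.95). Rfx6, Neurod1 and Isl1, transcription factors of endocrine differentiation, lay below background on both negative arrays, and their rises were at least 5.27, 4.68 and 4.41. Without negative replicate 1 the count was 7. In high against low cells 9 were lower and 0 higher. The repressor gene Rest, which silences neuronal and granin genes in other cell types, averaged 5.21 in high, 5.50 in low and 6.08 in negative cells. It was lower in high than in negative cells (-0.86 ± 0.18, limma adjusted p = 0.0476), a call lost when any array was left out (adjusted p from 0.0609 to 0.259). Set against negative cells, it differed in low cells by -0.58 ± 0.18 (adjusted p = 0.135). The CREB family genes Creb1, Crem and Atf1 differed by 0.15, 0.35 and -0.54 in low against negative cells (adjusted p = 0.850, 0.722 and 0.399).

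**Figure D4:**
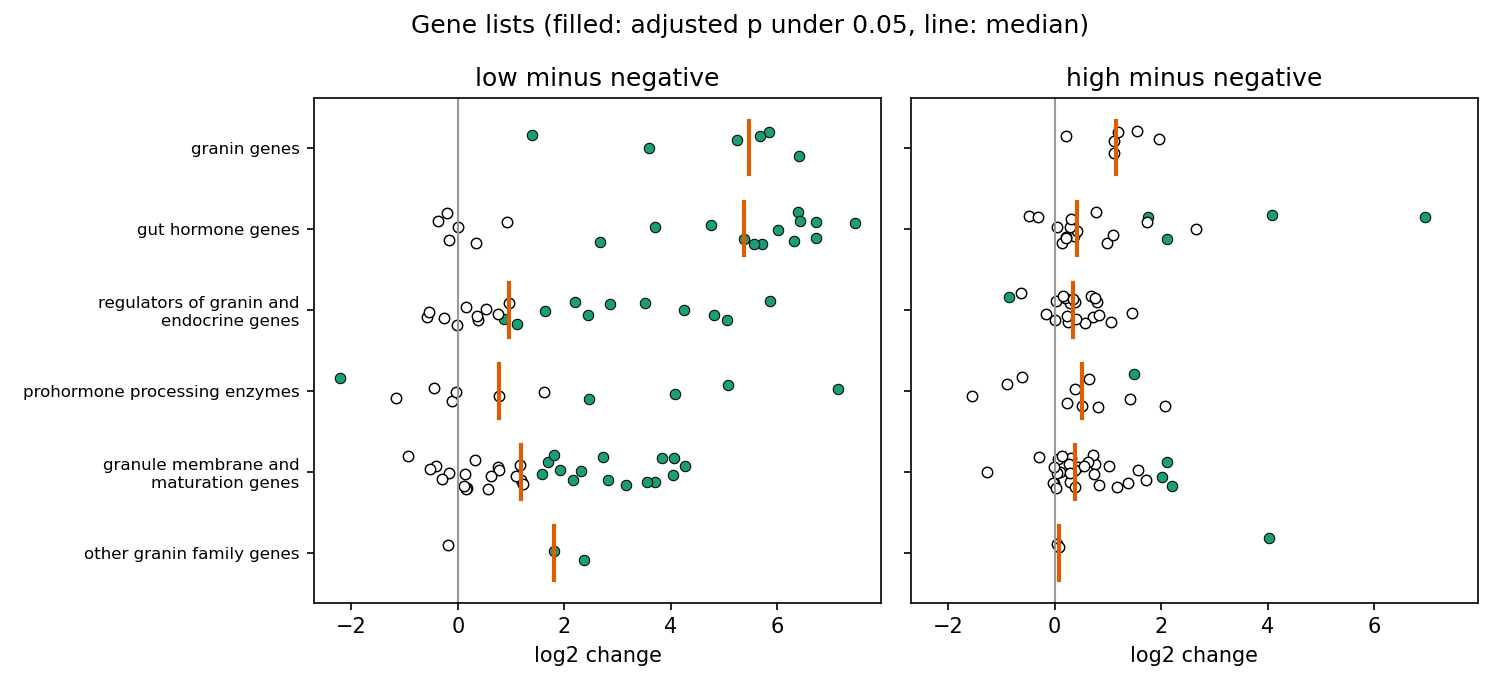
log2 change of each gene (x axis) of the granins and of 5 related gene lists (rows), in low minus negative and high minus negative cells. Filled points have an adjusted p under 0.05, and orange lines are list medians. In the left panel all 6 granins and 13 of 19 hormone genes are filled, and in the right panel 0 granins and 4 hormone genes.

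Markers of other cells that could carry granin RNA were also read. Granins are also made by enteric neurons. Of 14 neuron markers 1, the receptor gene Ret, was called higher in low than in negative cells, by 2.56 ± 0.19 (limma adjusted p = 0.00128). The neuron markers Elavl4, Stmn2, Vip and Chrna3 were not above background on any array. Of the 14 neuron markers, 10 were above background on at least 1 array in high, 7 in low and 8 in negative cells. Their list averaged 4.39 and 4.52 on the high arrays, 4.31 and 4.46 on the low arrays, and 4.14 and 4.08 on the negative arrays. Of 6 glia markers, 0 were called in low against negative cells (limma), with 0 at an unadjusted p under 0.05. Gfap and Fabp7 were not above background on any array, while 4 of the 6 were on at least 1 array in high, 2 in low and 4 in negative cells. The part of neurons and glia in the granin differences was not tested.

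Immune and Paneth cell markers also differed between the gates, with the gates in other orders than for the granins. Of 11 T cell markers, 7 were higher in low than in negative cells, and their mean was 6.14 and 6.35 on the high arrays, 8.65 and 8.89 on the low arrays, and 7.56 and 7.85 on the negative arrays. That count fell when an array of either gate was left out, in fits that leave 1 array in that gate. A call can be lost there while its change stays the same. Cd3g, for example, rose by 1.68 with all arrays and also without either negative array. Of 12 myeloid and mast cell markers, 5 were higher and 2 lower in low than in negative cells. That was 1 higher and 0 lower without negative replicate 1, and 2 higher and 0 lower without negative replicate 2, and 3 higher and 2 lower without low replicate 2. The myeloid means were 5.42 and 5.63 on the high arrays, 6.42 and 6.38 on the low arrays, and 5.96 and 6.06 on the negative arrays. Of 10 measured Paneth cell markers, 9 were higher in low than in negative cells and 9 in high than in negative cells, the second count being 5 without negative replicate 2. Their means were 12.20 and 11.91 on the high arrays, 11.15 and 11.27 on the low arrays, and 8.47 and 7.69 on the negative arrays. The part of these cells in the granin differences was not tested.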

How the data were processed

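RNA from sorted crypt cells was amplified, biotin-labelled and hybridised, per the labels' protocols. Per the submitters' processing notes, the authors used RMA in Expression Console 1.3.0.187. The deposited values were taken as log2 from their range, 1.9 to 13.98. RMA compresses differences near background, so changes of dim genes are understated.

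From these values, probe sets with 1 gene symbol were reduced to 1 a gene (highest mean), which left 19938 genes. Genes were tested with limma 3.58.1 in R 4.3.3, in a single fit of 3 gate means to the 6 arrays, two-sided, with Benjamini-Hochberg adjustment over all genes, and called at an adjusted p under 0.05. The procedure was tested on simulated data. With 2 arrays a gate, p-values measure only the spread between these arrays, which may be technical, and the number of arrays limits the precision. The background level is the 95th percentile of receptor gene means. Where no array of the dimmer gate exceeded it, changes are lower bounds against it. Such a bound allows for the background level alone and not for the spread between arrays.

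The granin genes and the 18 gene lists were chosen with earlier results of these data known, so lists are given as counts and medians with no list test. Named genes were the granins, the 8 genes nearest to their mean profile and the nearest to each granin (predicted genes left out), and up to 3 called genes of a list with the largest change. Nucb1, Gip, Pcsk6, Creb1, Crem, Atf1 and the neuron and glia markers named as not above background fall outside this rule and were named after their values were seen. Alternatives were the prior, the arrays fitted, the rule for probe sets, dropping dim genes, scaling, array weights, thresholds, the replicate block and leaving out each array. No protein table was used. Python 3.11.15 was used for tables and matplotlib 3.10.9 for plots.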

Additional observations from a re-analysis of the deposited data

How the results depend on the processing

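In low against negative cells 5 or 6 granin genes were called under all 17 alternatives, and in high against low cells also 5 or 6. Vgf was the gene lost each time, in 4 and in 8 of the 17. Leaving out an array of the gate not compared gives the same fit as only the gates compared, so the 17 are not all separate checks. Chga, Chgb, Scg2, Scg3 and Scg5 kept direction and call in all 17 in both comparisons. In high against negative cells 0 granin genes were called in the main fit. With genes above background only 3 were called (Chga, Chgb and Scg2, limma adjusted p from 0.0448 to 0.0475). The count was 1 with the mean of all probe sets (Scg2), 1 after quantile normalization (Chga) and 1 with the replicate block (Chgb, adjusted p = 0.0377). It also differed without high replicate 2, a fit that leaves 1 array in the high gate. The changes of Chgb, Chga and Scg3 were 2.67, 2.06 and 1.69 there. Counts over all genes moved with the setting too, so these granin counts are not read alone. The cause of these differences between settings was not tested. Each granin gene has a single probe set, so the mean of all probe sets left the values of Scg2 as they were. The difference of Vgf in high against negative cells turned to -0.01 after quantile normalization. The replicate block changed no other granin call. Deviations of same-numbered arrays correlated at 0.1, 0.1 and 0.08. With only 2 replicate numbers, such a check cannot tell paired from unpaired arrays. The labels do not state a pairing, so none was assumed in the main fit.

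All genes called in low against negative cells numbered 1188 and ranged from 187 to 1761 when an array was left out, with 2150 under array weights and 353 at an adjusted p under 0.01. In high against negative cells the 939 became 13 to 1919 without an array, 561 with only the gates compared, 621 after quantile normalization, 620 with array weights and 61 at the stricter threshold. In high against low cells the 978 became 381 to 1739, 499 with only the gates compared, 607 with array weights and 319. The background level was 4.02 at the 90th and 4.98 at the 99th percentile, and Scg2, Scg3 and Vgf in negative cells were below it at both the main and the higher level, but 2 of the 3 at the lower. The lower bounds of their changes in low cells were 4.58, 4.02 and 0.22 (log2) at the higher level, an alternative added after the data were seen, against 5.33, 4.78 and 0.98. Of 450 list counts, fitted under alternatives added after the data were seen, 367 stayed within 1.5 times. The 2 arrays of each gate limit what can be called among small changes of dim genes such as Vgf.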

Other observations

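Over all genes, 8 (0.0401% of 19938) were called higher in low than in both other gates, and in high than in negative cells. Granin genes were absent from these 8 by construction, because the main fit called 0 of 6 higher in high than in negative cells. Their absence is therefore not a separate result. The means of all 6 granins stood in the order low, high, negative.

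Other marker lists were called little or moved the other way. In low against negative cells 8 of 10 cell cycle markers were lower, with a median of -1.96, led by Top2a (-2.16 ± 0.28, limma adjusted p = 0.00847), a call lost without negative replicate 1 (adjusted p = 0.0878), negative replicate 2 (adjusted p = 0.052) or low replicate 2 (adjusted p = 0.062). The count of 8 became, without a negative array, 2 (replicate 1) or 1 (replicate 2), and without a low array 5 (replicate 1) or 3 (replicate 2). Of 9 tuft cell, 10 fibroblast and smooth muscle and 8 endothelial markers, 0 were called in low against negative cells (limma), with 2, 0 and 1 at an unadjusted p under 0.05. Of 10 stem cell markers 2 were lower, of 12 enterocyte markers 3, of 9 goblet markers 1 and of 7 B and plasma cell markers 3. Without either negative array those counts were 0, 0, 0 and 1. The stem cell count was also 0 without low replicate 1 and 1 without low replicate 2, and the enterocyte count 0 without low replicate 2.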
